A study of Mus musculus with 5 samples.

Results

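The 9 genes described here encode receptors that direct where T cells go: the chemokine receptor genes Ccr2, Ccr4, Ccr7, Ccr8, Cxcr3, Cxcr4, Cxcr5 and Cxcr6, and S1pr1, the gene of a receptor for sphingosine 1-phosphate (S1P). Members were all probe sets, the groups of short probes that each read 1 transcript, whose single platform gene symbol was on this list. The list gave 13 of 45037 probe sets, and 9 of the 18193 genes with a symbol. Ccr2 had 4 probe sets, Cxcr6 had 2 and the other 7 genes had 1 each.

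Homing receptors are membrane proteins that couple to inhibitory G proteins and steer cells along gradients of chemokines or of S1P. A resting T cell uses CCR7 to enter lymph nodes and S1PR1 to leave lymphoid tissue towards the blood, where S1P is high. After activation, T cells of the Th1 kind, which make interferon-gamma, come to carry CXCR3 and other receptors for chemokines of inflamed tissue. CXCR5 leads cells into B cell follicles, and CXCR4 binds CXCL12, a chemokine of bone marrow and lymphoid stroma.

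RNA of splenic CD4 T cells of the mouse strain BALB/c had been hybridised to Affymetrix arrays, 1 array for each of 5 groups. The labels name naive CD4 cells, control effector Th1 cells, effector Th1 cells labelled TOFA, effector Th1 cells labelled Rap, and memory Th1 cells. TOFA inhibits acetyl-CoA carboxylase, the enzyme that commits acetyl-CoA to fatty acid synthesis, while Rap is not spelled out and neither agent has a dose in the labels. The culture described for all samples was Th1 stimulation for 5 days, with IL-2 at 15 ng/ml beside IL-12 at 10 ng/ml. The labels call 3 samples effector cells, and none says that the naive or memory cells were left out of this culture. The naive and memory arrays are called resting here, a word the labels do not use. How the memory cells were obtained, and whether animals were pooled, is not given in the sources used here.

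No group had a replicate array, so no test between groups could be made, and every statement describes these 5 arrays, whose number limits the precision. Signals are linear and were quantile normalized between arrays. Signals under 43.4, the 40th percentile, were raised to that floor for differences, and a fold against an array at the floor is written as "at least". Genes past a 2-fold difference were called higher or lower. Where a gene had several probe sets, the brightest stood for it, and the others are the only internal check on its differences. In such RNA from whole samples, fewer cells of a type and less RNA per cell cannot be told apart.

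Summed markers of macrophages, B cells, neutrophils, dendritic cells and erythroid cells were highest in the memory array, though single genes differed. H2-Aa, H2-Eb1, H2-Ab1 and Cd74 made up most of the dendritic cell sum there. Batf3 was lower in memory (293) than in effector cells (3678 to 4932). S100a8 and S100a9 led the neutrophil sum, while Mpo was 4.24-fold below naive cells. Flt3 (37.2), Elane (9.19) and the erythroid gene Hba-a1 (32.6) were under the floor in memory cells. Memory cells had 8 of 11 dendritic, 3 of 10 neutrophil and 3 of 4 erythroid markers higher than naive cells. Markers of CD8 T and NK cells summed highest in the Rap array (2157, against 925 to 1924 elsewhere), where Klrk1 alone gave 1686. Of the others, Cd8a, Cd8b1 and Ncr1 were highest in memory cells (371, 702 and 102) and Klre1 in naive cells (67.4). Klra7 and Klra8 were under the floor throughout. All 11 CD4 T cell markers measured were above the floor on all 5 arrays, with a summed signal between 64664 and 95064. The 13 monocyte and macrophage markers summed to 106719 in memory cells, against 1846 in naive cells and 403 to 659 in the 3 effector arrays. C1qa, a complement gene of macrophages, had a signal of 16550 in memory cells and lay under the floor on the 4 other arrays, between 1.85 and 7.72. The 13 B cell markers summed to 57240 in memory and 34501 in naive cells, against 2243 to 3011 in the effector arrays. The array labelled memory Th1 cells therefore carried the defining genes of macrophages and B cells beside those of T cells. No comparison that uses the memory array can be repeated without it.

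The egress receptor gene S1pr1 (Entrez gene 13609) was highest in resting cells. Its signal was 6218 in naive, 3286 in memory, 1004 in control effector cells and, for the other effector arrays, 753 with Rap and 735 with TOFA. Both resting arrays stood above all 3 effector arrays. Control effector cells were 6.19-fold lower than naive cells (log2 difference -2.63), rank 148 from the bottom of 13070 genes. Memory cells were 3.27-fold above control effector cells, and naive and memory cells were within 2-fold of each other. The 3 effector arrays lay within 1.37-fold for S1pr1, the narrowest effector range of the 8 members above the floor. S1pr1 is also used by B cells, whose markers were likewise higher in both resting arrays. The part of those cells in the S1pr1 signal was not tested.

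Ccr7 (Entrez gene 12775), the lymph node entry receptor gene, was also highest in naive cells, but the order of the other arrays differed. Signals were 10056 in naive, 6316 in Rap effector, 4261 in TOFA effector, 3604 in memory and 2712 in control effector cells. Naive cells were 3.71-fold above control effector cells and 2.79-fold above memory cells. Each array was within 2-fold of the next in this order. The Rap array was 2.33-fold above the control effector array (log2 difference 1.22, rank 119 from the top of 12851 genes), while the TOFA array was 1.57-fold above it (0.65, under 2-fold). Ccr7 thus did not divide the arrays into resting and effector cells as S1pr1 did, since the memory signal lay between those of the effector arrays.

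Cxcr4 (Entrez gene 12767), the CXCL12 receptor gene, gave 1451 in naive, 599 in control effector, 544 in memory, 374 in TOFA effector and 240 in Rap effector cells. The naive array stood apart from the others, 2.42-fold above the next. The Rap array was 2.49-fold below control effector cells (log2 difference -1.32), and the TOFA array was 1.60-fold below them (-0.68). Memory and control effector cells were within 1.10-fold, and which was higher turned with the scaling: the log2 difference was -0.14 after quantile normalization and 0.10 with the values as deposited.

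**Figure D1:**
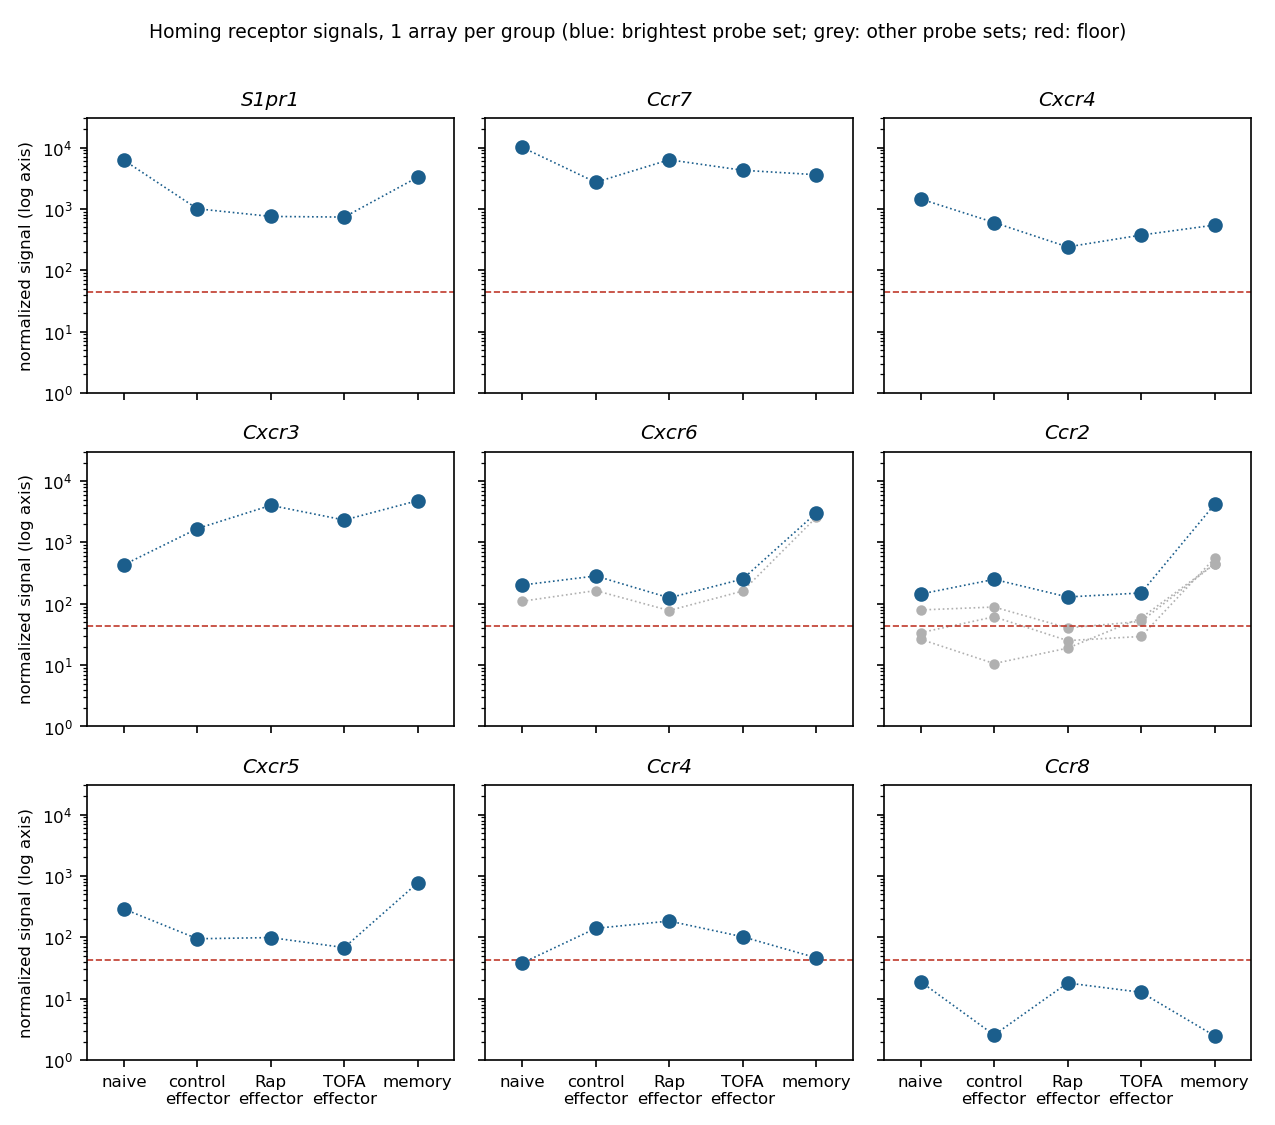
Normalized signal (log axis) of each homing receptor on the 5 arrays, with the brightest probe set in blue, other probe sets of the gene in grey and the floor of 43.4 as a dashed red line. S1pr1 is high in naive and memory cells, Ccr2 and Cxcr6 are high in memory cells, and Ccr8 lies under the floor on every array.

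Cxcr3 (Entrez gene 12766), the receptor gene for the interferon-induced chemokines CXCL9, CXCL10 and CXCL11, was lowest in naive cells. It gave 4799 in memory, 4019 in Rap effector, 2317 in TOFA effector, 1679 in control effector and 432 in naive cells. The 4 other arrays were all above the naive array, the nearest by 3.88-fold. Memory cells were 11.1-fold above naive and 2.86-fold above control effector cells. Among effector cells, the Rap array was 2.39-fold above control (log2 difference 1.26, rank 105 from the top of 12851 genes) and the TOFA array 1.38-fold above it (0.46). Tbx21, which encodes T-bet, a Th1 transcription factor known to drive Cxcr3, gave 121 in naive, 710 in memory, 2036 in control effector, 2401 in TOFA effector and 2967 in Rap effector cells. Over the effector arrays both genes thus had the same order, with Tbx21 within 2-fold across them. The memory array, however, had the highest Cxcr3 and the next to lowest Tbx21. A link between both genes was not tested. The memory array also carried macrophage and B cell genes, and the part of such cells in its Cxcr3 signal was not tested.

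The Cxcr3 promoter is shown because T-bet is a known regulator and Tbx21 was measured on the same arrays. It is the RefSeq sequence of build GRCm38.p6, minus strand, from 250 bases before to 50 bases after the start, 5′ to 3′, with 2 motif matches in capitals:
Cxcr3 promoter, chrX:101734098-101734397: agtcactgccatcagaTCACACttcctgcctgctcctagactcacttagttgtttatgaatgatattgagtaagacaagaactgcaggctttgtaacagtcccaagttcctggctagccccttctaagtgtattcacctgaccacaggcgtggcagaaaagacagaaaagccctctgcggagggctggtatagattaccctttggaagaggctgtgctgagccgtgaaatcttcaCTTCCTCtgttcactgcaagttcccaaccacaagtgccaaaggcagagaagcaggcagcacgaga
The first capitals, TCACAC, are a T-box core (searched as GTGTGA on both strands) whose first base lies at position -234 from the start. The others, CTTCCTC, are an ETS site of the PU.1 type (searched as GAGGAAG on both strands) with its first base at position -15. Of all 32851 promoters of this length, 14.5% held GTGTGA and 13.6% held GAGGAAG on either strand. A match is a description of the letters and not evidence of binding.

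Cxcr6 (Entrez gene 80901), whose ligand CXCL16 is found in liver and inflamed tissue, was high in memory cells. The brighter probe set gave 3015 in memory, 284 in control effector, 253 in TOFA effector, 202 in naive and 125 in Rap effector cells. The other gave 2554, 164, 161, 110 and 77.6 in the same order of arrays. Only the memory array was high on both. Memory cells were 10.6-fold above control effector cells on the brighter probe set and 15.6-fold on the other, and 14.9-fold and 23.2-fold above naive cells. Rap effector cells were 2.27-fold below control effector cells (log2 difference -1.18) on the first probe set and 2.11-fold on the other (-1.08), while TOFA effector cells were 1.12-fold and 1.02-fold below. TOFA was 2.02-fold and 2.07-fold above Rap. Both of these Cxcr6 differences from the Rap array passed under 2-fold with a floor at the 60th percentile (-0.92 and 0.75) or an added constant (-0.96 and 0.81).

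Ccr2 (Entrez gene 12772), a receptor gene of inflammatory monocytes and of some effector and memory T cells, had the widest range of the 9 genes, by their brightest probe sets. Its brightest probe set gave 4165 in memory, 250 in control effector, 150 in TOFA effector, 144 in naive and 129 in Rap effector cells. The memory array stood 16.7-fold above the next, and the other 4 arrays were within 2-fold of each other. Against naive cells, memory cells were 28.9-fold higher (log2 difference 4.85, rank 127 from the top of 13082 genes). The 3 other Ccr2 probe sets gave 552, 445 and 448 in memory cells and were 12.7-fold (at least), 5.61-fold and 10.3-fold (at least) above naive cells. All 4 probe sets thus gave the same direction, though sizes differed. Between effector arrays the probe sets differed. TOFA cells were 1.66-fold below control cells on the brightest, and at least 1.35-fold above them on one whose signals were 58.7 and 10.6. Rap cells were 1.93-fold below control cells on the brightest and at least 2.04-fold below on a dimmer one.

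The same array that was high for Ccr2 was high for macrophage genes. The monocyte and macrophage list summed to 106719 in memory and 1846 in naive cells, all 13 markers were above the floor in memory cells, and Csf1r, the receptor gene of the macrophage growth factor, gave 6232 against 96.3. Lyz2, which encodes lysozyme, gave 14766 against 811. The part of such cells in the Ccr2 and Cxcr6 signals of the memory array was not tested.

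Cxcr6 and Ccr2 lie near each other on mouse chromosome 9, in a run of genes that holds, in RefSeq order, Ccr9, Fyco1, Cxcr6, Xcr1, Ccr1, Ccr1l1, Ccr3 and Ccr2. Ccr3, a receptor gene best known from eosinophils, gave 3399 in memory cells and lay under the floor on the 4 other arrays, at most at 10.5. Ccr1, expressed by many myeloid cells, gave 222 in memory and 76.9 in naive cells, and Xcr1, a gene of cross-presenting dendritic cells, gave 76.1 against 3.57. Ccr9, the gut homing receptor gene, went the other way, with 165 in memory against 394 in naive cells. The neighbours named here were thus not all higher in memory than in naive cells.

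The promoters of Ccr2 and Cxcr6 are shown because these neighbours had the same order of arrays on their brightest probe sets. Below memory cells the Ccr2 signals were within 2-fold of each other, and its other probe sets gave other orders. Both promoters are RefSeq sequences of build GRCm38.p6, plus strand, 5′ to 3′, cut like that of Cxcr3:
Ccr2 promoter, chr9:124101933-124102232: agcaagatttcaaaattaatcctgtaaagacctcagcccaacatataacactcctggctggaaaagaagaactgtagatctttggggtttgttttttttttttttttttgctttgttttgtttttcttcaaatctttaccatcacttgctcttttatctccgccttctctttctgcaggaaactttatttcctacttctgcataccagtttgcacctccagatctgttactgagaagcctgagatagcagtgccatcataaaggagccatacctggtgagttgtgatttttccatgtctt
Cxcr6 promoter, chr9:123806227-123806526: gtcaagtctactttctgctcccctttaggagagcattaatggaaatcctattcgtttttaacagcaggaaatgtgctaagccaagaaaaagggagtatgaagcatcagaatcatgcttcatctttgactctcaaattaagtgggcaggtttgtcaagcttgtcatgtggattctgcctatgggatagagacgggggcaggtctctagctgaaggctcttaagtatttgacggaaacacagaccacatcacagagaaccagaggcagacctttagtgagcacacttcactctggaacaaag
Neither holds the T-box core or the ETS site on either strand, so no letters are in capitals. They also lack ACGTG, the core of hypoxia-inducible factor sites, and the KLF box, searched as CACCC, on both strands. Promoters were matched for 6 of the 9 genes. The KLF box was in 3 of these, Ccr4, Ccr8 and Cxcr4, against 57.5% of all promoters, and the hypoxia-inducible factor core in 0, against 19.6%. No match says only that these letters are not in this window.

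Cxcr5 (Entrez gene 12145), the follicle homing receptor gene, gave 773 in memory, 290 in naive, 99.0 in Rap effector, 94.7 in control effector and 68.0 in TOFA effector cells. Both resting arrays were above all 3 effector arrays. Memory cells were 8.16-fold and naive cells 3.07-fold above control effector cells. Cxcr5 is expressed by nearly all mature B cells, and the 13 B cell markers had the same 2 arrays on top, memory (57240) before naive (34501). Ms4a1, which encodes the B cell protein CD20, gave 11123 in memory, 2406 in naive and 197 to 431 in effector cells. The part of B cells in the Cxcr5 signal was not tested. With a floor at the 60th percentile, control effector cells were under 2-fold below naive cells (log2 difference -0.95).

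Ccr4 (Entrez gene 12773), a receptor gene of Th2, regulatory and skin-homing T cells, was low throughout. It gave 184 in Rap effector, 140 in control effector, 102 in TOFA effector, 46.4 in memory and 38.1 in naive cells, the last under the floor. The 3 effector arrays were above both resting arrays. Control effector cells were at least 3.23-fold above naive cells and 3.02-fold above memory cells. The comparison with naive cells was possible only because Ccr4 was above the floor in effector cells. With a floor at the 60th percentile both calls were lost, since all 3 of these signals lay under it. Against memory cells the log2 difference of -1.59 was -1.01 with the values as deposited and -1.03 with an added constant.

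Ccr8 (Entrez gene 12776), a receptor gene of Th2 and tissue regulatory T cells, was under the floor on all 5 arrays, between 2.48 and 18.9. No order or difference can be read from it.

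**Figure D2:**
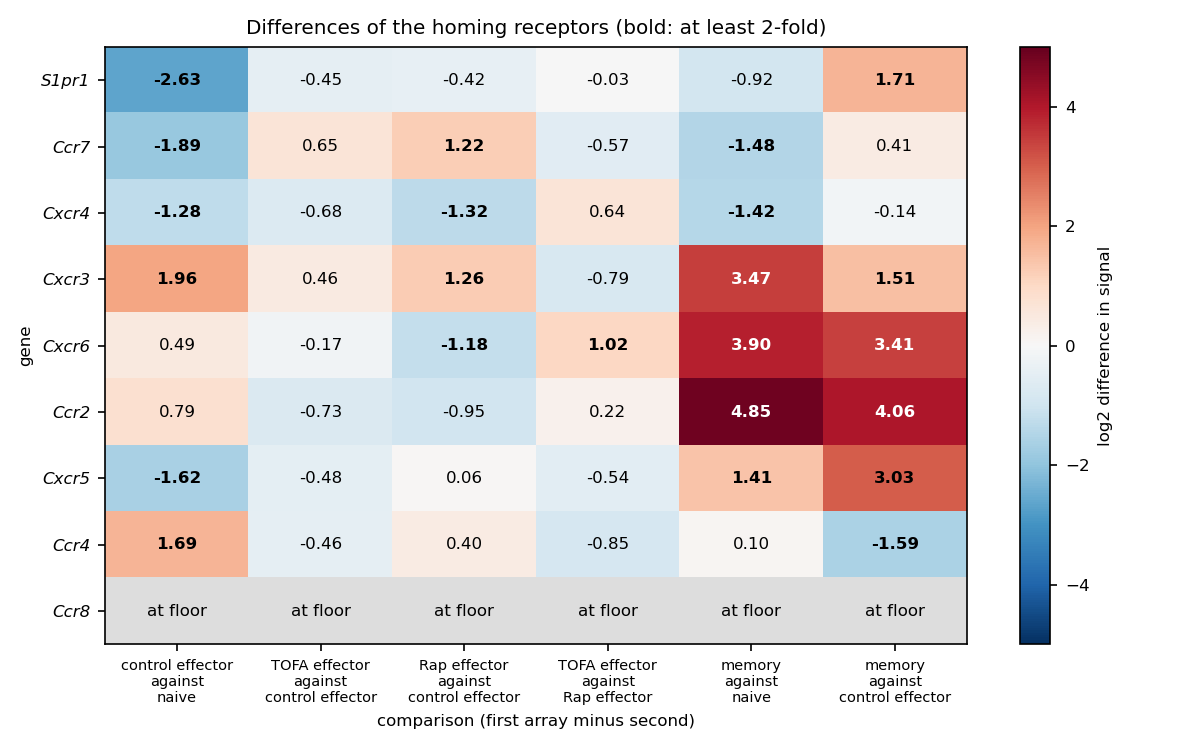
Log2 difference in signal (first array minus second) of each homing receptor in the 6 comparisons, from the brightest probe set; bold values are at least 2-fold and grey cells had both arrays at the floor. TOFA against control effector holds no bold value, while Rap against control effector has 1.22 for Ccr7, 1.26 for Cxcr3, -1.32 for Cxcr4 and -1.18 for Cxcr6.

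Comparing control effector with naive cells asked how homing receptors differed between effector Th1 and naive cells. Of 8 members compared, 2 were at least 2-fold higher (Cxcr3 and Ccr4), against 15.9% of all 13070 genes compared. In the other direction 4 were lower (S1pr1, Ccr7, Cxcr5 and Cxcr4), against 11.4% of all genes. Ccr2 and Cxcr6 were under 2-fold. Markers of other cells were lower in control effector cells as well: 12 of 13 B cell markers compared (median log2 difference -2.49) and 7 of 9 neutrophil markers (-2.28). The neutrophil markers summed to 6014 in naive and 226 in control effector cells. The part of such cells in the lower signals of S1pr1, Ccr7, Cxcr5 and Cxcr4 was not tested. The members' median log2 difference was -0.39, against 0.04 over all genes.

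Effector cells labelled TOFA were compared with control effector cells to describe cultures given an inhibitor of acetyl-CoA carboxylase. None of the 8 members was 2-fold apart in either direction, where 2.47% of 12850 genes were higher and 2.15% lower. Their log2 differences ran from -0.73 (Ccr2) to 0.65 (Ccr7). Ccr7 and Cxcr3 were above 0 and the other 6 below, with a median of -0.45 against 0.01 over all genes.

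Among Rap effector cells, 2 members were at least 2-fold above control effector cells (Ccr7 and Cxcr3), against 1.82% of 12851 genes. Likewise 2 were lower (Cxcr4 and Cxcr6), against 3.91%. The median over members was -0.18, against 0.00. Ccr2, Ccr4, Cxcr5 and S1pr1 were under 2-fold. The TOFA and Rap comparisons share the control array, so their values are given side by side and not as independent evidence: 0.65 and 1.22 for Ccr7, 0.46 and 1.26 for Cxcr3, -0.68 and -1.32 for Cxcr4. For Cxcr6 they were -0.17 and -1.18, and for Ccr4 -0.46 and 0.40.

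Set directly against each other, TOFA and Rap effector cells were 2-fold apart for 1 member. Cxcr6 was 2.02-fold higher in TOFA cells, where 3.28% of 12802 genes were higher. No member was 2-fold lower in TOFA cells, against 1.35% of genes. The nearest were Ccr4 (log2 difference -0.85) and Cxcr3 (-0.79).

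Memory cells were compared with naive and with control effector cells. Against naive cells 4 members were at least 2-fold higher (Ccr2, Cxcr6, Cxcr3 and Cxcr5), where 12.6% of 13082 genes were. Ccr7 and Cxcr4 were lower, where 4.14% were. Against control effector cells 5 members were higher (Ccr2, Cxcr6, Cxcr5, S1pr1 and Cxcr3), where 14.5% of 13326 genes were, and Ccr4 was lower, where 14.1% were. The medians over members were 0.75 and 1.61, against -0.05 and -0.03 over all genes. The macrophage and B cell marker sums given above were highest in this array as well. Values as deposited moved the median of all genes in memory against control effector cells from -0.03 to 0.18, and the split of genes from 1932 higher and 1873 lower to 2601 and 1453. For memory against naive cells the split went from 1645 and 542 to 2075 and 344.

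**Figure D3:**
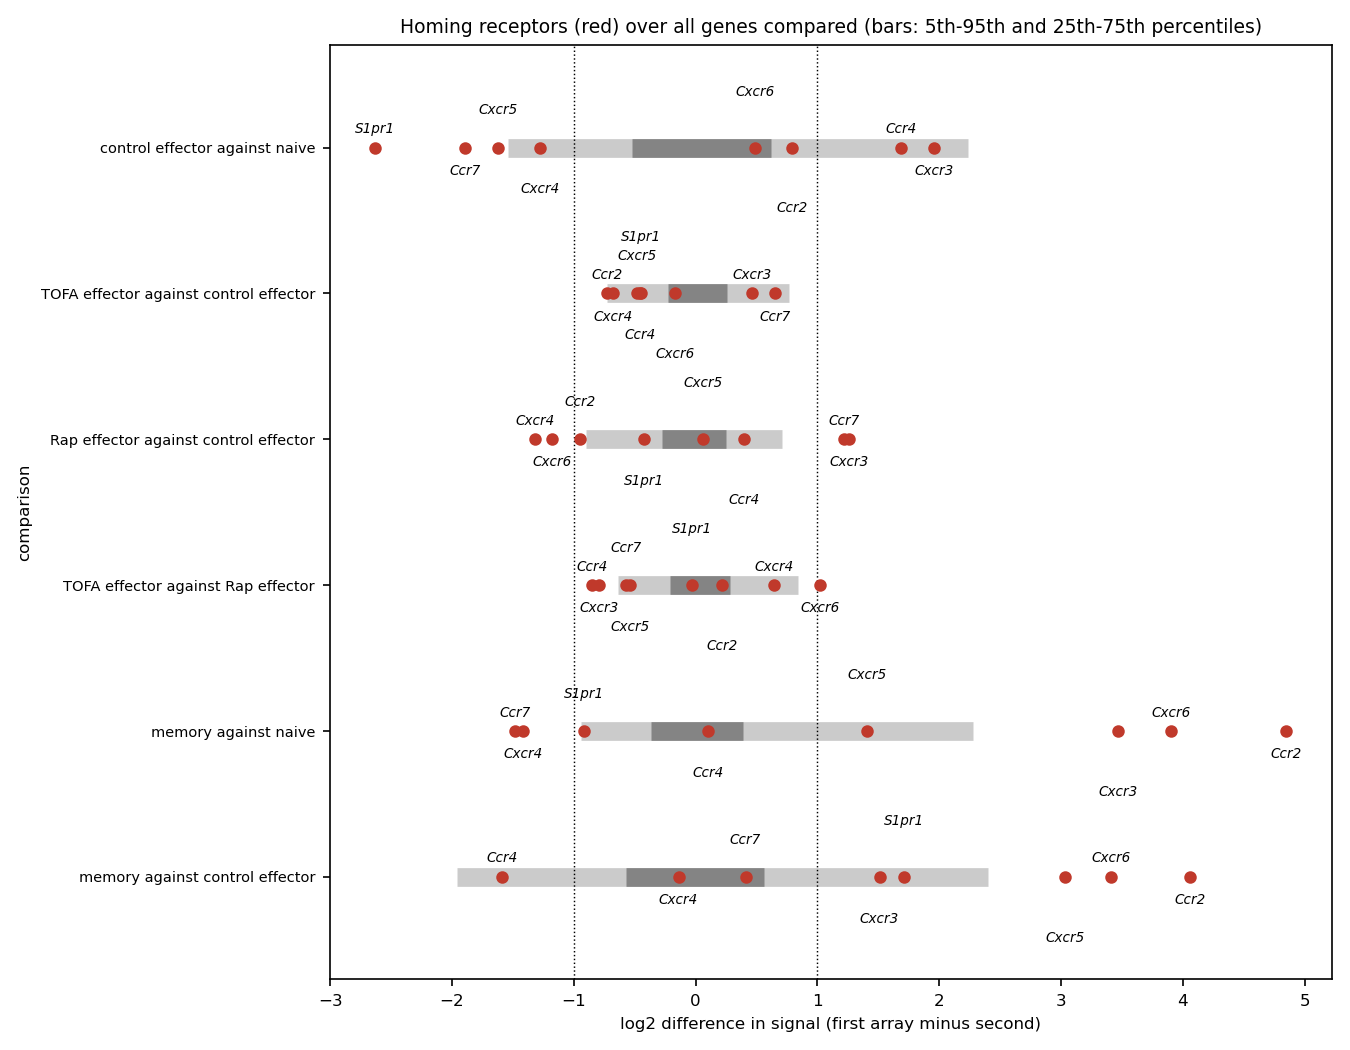
Log2 differences of the 8 measured homing receptors (red points) in each comparison, over the 5th to 95th (light bar) and 25th to 75th (dark bar) percentiles of all genes compared; dotted lines mark 2-fold. In memory against naive cells the 95th percentile of all genes is 2.28, and Cxcr3 (3.47), Cxcr6 (3.90) and Ccr2 (4.85) lie beyond it.

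Over all 5 arrays, 3 members had the 3 effector arrays on one side of both resting arrays by at least 2-fold. Ccr4 was higher in effector cells, where 5.95% of 14522 genes were, and S1pr1 and Cxcr5 were lower, where 2.95% were. Ccr4 no longer stood apart with the values as deposited, an added constant or a floor at the 60th percentile, and with that floor Cxcr5 did not either. Without the memory array, Ccr4 and Cxcr3 were higher in all 3 effector arrays than in naive cells (9.75% of genes), and Cxcr4, Cxcr5 and S1pr1 were lower (6.29%). Without the naive array, Ccr4 was higher than in memory cells (8.36%), and Ccr2, Cxcr5, Cxcr6 and S1pr1 were lower (10.1%). S1pr1, Cxcr5 and Ccr4 had to pass in both settings, since they stood apart from both resting arrays above.

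**Figure D4:**
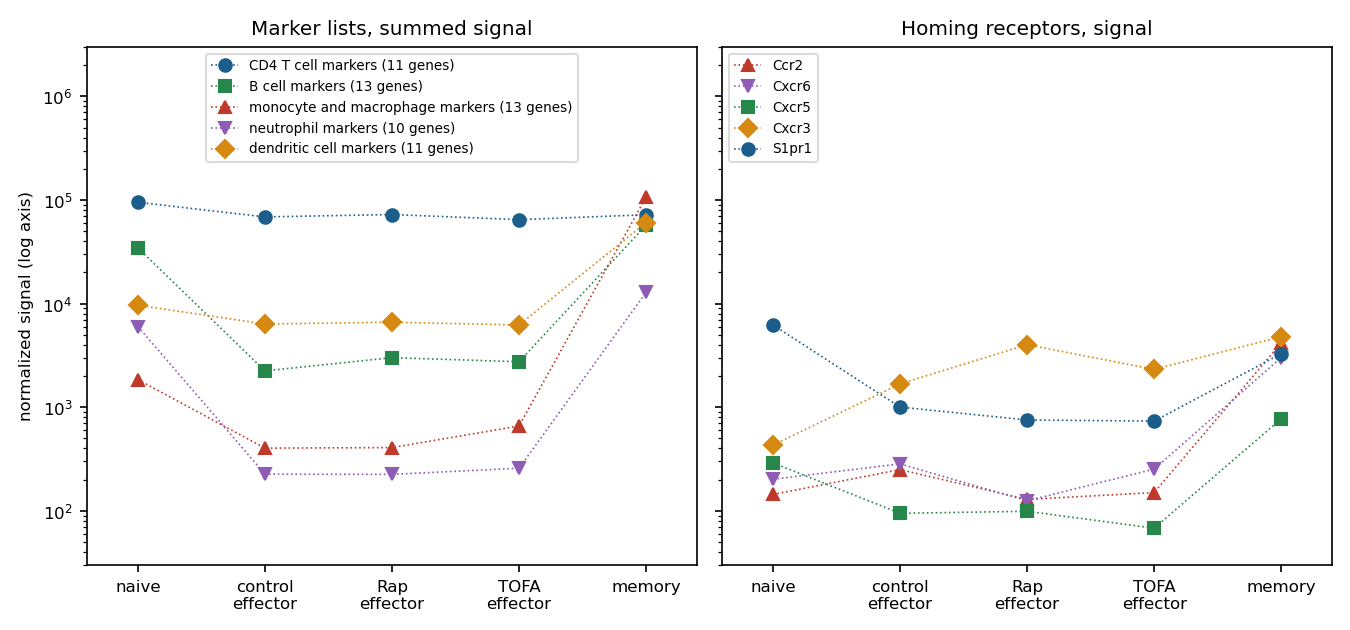
Normalized signal (log axes) on the 5 arrays: summed over the genes of each marker list (left) and for 5 homing receptors (right). The monocyte and macrophage sum is 106719 in memory cells and at most 1846 elsewhere, and Ccr2 (4165) and Cxcr6 (3015) are highest on the same array.

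The known regulators of these receptors were followed on a list of 18 measured genes. Between control effector and naive cells, 6 were higher in the former and 7 lower, against 15.9% and 11.4% of all genes. Klf2, a transcription factor that switches on S1pr1 in resting T cells, gave 14239 in naive, 8746 in memory, 1175 in Rap effector, 934 in control effector and 600 in TOFA effector cells. The 2 resting arrays were the high ones for Klf2 as for S1pr1. Over the effector arrays the orders differed, with S1pr1 at 1004 in control, 753 in Rap and 735 in TOFA cells. A link between both genes was not tested. Klf3, a related factor, gave 13669 in naive and 773 in control effector cells, and 2363 in Rap against 1108 in TOFA effector cells. Among the Rap and control arrays, Klf3 and Eomes, a T-box factor of memory and cytotoxic cells, were 3.06-fold and 2.33-fold higher, and Prdm1, which encodes Blimp-1, was 2.03-fold lower. Of all genes, 1.82% were higher and 3.91% lower in that comparison. In TOFA against control cells 0 were higher and 2 lower, Prdm1 (2.81-fold) and Id3 (2.17-fold), an inhibitor of E proteins. There 2.47% of all genes were higher and 2.15% lower. In memory cells 2 of 17 compared were higher and 5 lower than in naive cells (12.6% and 4.14% of all genes). Against control effector cells, 3 of 18 were higher and 5 lower (14.5% and 14.1%).

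Of 28 measured genes that carry or damp the receptors' signal, 3 had a signal at least 2-fold above that of naive cells in control effector cells, and 9 were lower. Over all genes, 15.9% were higher and 11.4% lower. Rgs1, which ends G protein signals and slows chemokine responses, gave 841 in naive, 2682 in memory, 9528 in control effector cells and, of the others, 10495 with Rap and 12061 with TOFA. Rgs2 had the opposite order between naive (1927) and control effector cells (401) and was highest in memory cells (8083). Of 27 compared, only Cd69 was 2-fold higher in TOFA than in control cells, with 4281 against 1614, where 2.47% of all genes were higher. CD69 binds S1PR1 and takes it off the cell surface, which these RNA signals cannot show. Only Arrb1, a beta-arrestin gene of receptor uptake, was 2-fold lower in Rap than in control cells, with 585 against 1581, where 3.91% of all genes were lower. In memory cells 6 were higher and 1 lower than in naive cells (12.6% and 4.14% of all genes). Against control effector cells, 5 were higher and 1 lower (14.5% and 14.1%).

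Of 15 measured genes of S1P and ceramide turnover, 14 could be compared between control effector and naive cells. There 3 were higher by 2-fold or more and 3 lower, against 15.9% and 11.4% of all genes. Plpp2, a lipid phosphate phosphatase gene, gave 88.1 in naive, 861 in control effector, 738 in TOFA effector, 338 in Rap effector and 314 in memory cells. Sgpl1, the lyase gene that breaks S1P down for good, gave 489 in naive and 149 in control effector cells. It was 2.34-fold above control in TOFA cells (347), the only gene of the list past 2-fold there, and gave 240 in Rap cells. Of all genes, 2.47% were higher and 2.15% lower in TOFA than in control cells. Only Plpp2 passed 2-fold between Rap and control cells (2.55-fold lower), where 1.82% of all genes were higher and 3.91% lower. Memory cells had 6 higher and 1 lower than naive cells (12.6% and 4.14% of all genes). They had 5 higher and 1 lower than control effector cells (14.5% and 14.1%). Plpp3 (3467) and Plpp1 (1434) in memory cells were far above naive cells, at 51.8-fold and at least 33.1-fold, on the array with the macrophage markers.

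Ligand genes of these receptors were measured for 13, none of them for CCR7, whose ligand genes Ccl19 and Ccl21a were not measured, or for S1PR1. Of these, 8 could be compared between control effector and naive cells. Cxcl11 (224 against 5.21) and Ccl22 (102 against 32.4) were at least 2-fold higher and 0 lower, against 15.9% and 11.4% of all genes. The 3 ligand genes of CXCR3 differed in order: Cxcl10 gave 268 in TOFA effector, 123 in Rap effector and 34.5 in control effector cells, while Cxcl9 gave 87.3, 125 and 57.0 and Cxcl11 gave 335, 271 and 224 in the same order. Of the 3 effector arrays, control was the lowest for each, and under the floor for Cxcl10, but Cxcl9 was highest with Rap and the others with TOFA. Against control, Cxcl10 was at least 6.18-fold higher with TOFA and at least 2.83-fold with Rap. Cxcl9 was 1.53-fold higher with TOFA and 2.19-fold with Rap, and Cxcl11 was under 2-fold in both. The count against control was 1 higher and 0 lower for TOFA (2.47% and 2.15% of all genes). For Rap it was 3 higher and 0 lower (1.82% and 3.91%). Memory cells had 5 of 9 compared higher and 0 lower than naive cells (12.6% and 4.14% of all genes). Cxcl9 was in the lead (1031 against 29.1), on the array with the macrophage markers. The part of other cells in these ligand signals was not tested. Against control effector cells, 5 of 10 compared were higher in memory cells and 2 lower (14.5% and 14.1%).

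Of 21 other receptors for chemokines, S1P, oxysterols and lipid mediators, 16 could be compared between control effector and naive cells. In that comparison 3 were higher and 4 lower, against 15.9% and 11.4% of all genes. Ltb4r1, the leukotriene B4 receptor gene, gave 978 in control effector, 377 in TOFA effector, 206 in Rap effector, 49.2 in memory and 2.04 in naive cells. Cxcr2, better known from neutrophils, gave 518 in control effector cells, 243 with Rap, 204 with TOFA, 123 in memory and 67.0 in naive cells. Of 14 genes of this list compared, Ltb4r1 and Cxcr2 were the 2 that were lower by 2-fold in TOFA than in control cells. Only Ccrl2, a receptor that does not signal, was higher (512 against 201). There 2.15% of all genes were lower and 2.47% higher. In Rap cells 0 of 14 compared were higher and 3 lower than in control cells (1.82% and 3.91% of all genes), Ccrl2 among them at 100. Ccrl2 was therefore 5.11-fold higher in TOFA than in Rap cells. Gpr183, the oxysterol receptor gene, was 2.07-fold higher and Ccr6, a Th17 receptor gene, 2.50-fold lower in TOFA than in Rap cells. In memory cells 8 of 19 compared were higher and 1 lower than in naive cells (12.6% and 4.14% of all genes). Ccr3 (at least 78.4-fold) and the scavenger receptor gene Ackr3 (at least 38.9-fold) were in the lead, on the array with the macrophage markers. The part of other cells in these receptor signals was not tested. Against control effector cells, 8 of 20 compared were higher in memory cells and 2 lower (14.5% and 14.1%).

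S1pr4, the other S1P receptor gene with high signals, also had both resting arrays above the 3 effector arrays, but by less than 2-fold between memory and control effector cells. It gave 3262 in naive, 2175 in memory, 1231 in control effector cells, with 1111 for Rap and 1043 for TOFA. S1pr2 did not, with 316 in control effector and 173 to 264 on the other arrays.

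Genes of like pattern were sought by the distance between log2 profiles centred over the 5 arrays, a small value meaning a like shape. For S1pr1 the nearest were Tent5c (0.29), Ovgp1 (0.32) and Ntn4 (0.38), and for Ccr7 Nfkbiz (0.32), Nr4a3 (0.37) and Ino80b (0.38). Tent5c gave 7450 in naive, 3633 in memory and 836 to 1098 in effector cells. Nfkbiz, an inhibitor of kappa B family gene, gave 3503 in naive, 2745 in Rap, 1826 in TOFA, 1590 in memory and 1258 in control effector cells, the same order as Ccr7. For Cxcr3 the nearest was Fgl2 (0.36), with 1356 in memory, 1107 in Rap, 729 in TOFA, 421 in control effector and 97.8 in naive cells. The nearest to Ccr2 were Trpm2 (0.31), Cpq (0.35) and Slc7a7 (0.36), with 1585, 1551 and 1859 in memory cells and at most 94.1 elsewhere. Cxcr6 had its nearest at 0.57 (Stom), Cxcr4 at 0.51 (Prrt1 and Mtss1), Cxcr5 at 0.42 (Dennd5b) and Ccr4 at 0.22 (Tmco3). With 5 arrays, near profiles are a description of these arrays.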

How the data were processed

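RNA of 5 groups of mouse CD4 T cells had been measured with 1 Affymetrix array each. The authors deposited intensity values, linear and 1 per probe set, made with GCOS and Affymetrix Expression Console per the submitters' processing notes. Neither versions nor the algorithm were given in the sources used here. Their mean after trimming 2% at each end was 500 on every array, and the medians of the arrays spanned 0.658 in log2 units.

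After 64 of 45101 probe sets (controls) were set aside, signals were quantile normalized with Python 3.11.15, numpy 2.4.6 and pandas 2.3.3, and floored at the 40th percentile (43.4). By the platform annotation of 2016, 34945 of the remaining probe sets carried a single symbol, 932 more than that and 9160 no symbol. The brightest probe set stood for a gene, a gene needed a signal above the floor in 1 of both arrays, and a 2-fold difference was counted. The procedure was tested on simulated data.

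Members, gene lists and alternatives were chosen with earlier results of these data known. Genes named were all members, up to 4 of each list with the largest differences in a comparison, and up to 3 of like pattern per member, the last among genes reaching the 60th percentile and without predicted genes. Some further genes of the lists are named for their role (S1pr4, S1pr2, neighbours on chromosome 9 and cell type markers), a choice made after their values were seen. Promoters came from RefSeq. The alternatives are given in the closing section.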

Additional observations from a re-analysis of the deposited data

How the results depend on the processing

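Of 48 member differences, 280 values under 6 alternatives (no quantile normalization, a lower floor at the 20th percentile, a higher one at the 60th, a gene's mean over its probe sets, no _x_at or _s_at probe sets, an added constant) kept their side of the 2-fold limit in 275 cases. The other 5 fell under it, 3 with the floor at the 60th percentile and 2 with the added constant. None reversed while past 2-fold. No member probe set was of the _x_at or _s_at kind, so leaving these out could change none of the 48 values. The mean over probe sets could change only Ccr2 and Cxcr6, and the lower floor only differences with an array under 43.4. The 275 cases thus include many that could not have moved. The floor at the 60th percentile gave a value for 40 of the 48, and the 2 Ccr4 calls, for control effector against naive and memory against control effector cells, were lost there for want of one. The count of members 2-fold apart between TOFA and Rap effector cells went from 1 to 0 with the floor at the 60th percentile and with the added constant. The count standing apart between effector and resting arrays went from 3 to 1 (S1pr1) with the floor at the 60th percentile. It was 5 without the memory array and 5 without the naive array, settings chosen after seeing the data. No paired analysis was possible because each group had 1 array. Signals near the floor (Ccr4, Ccr8, Cxcr5 in effector cells and 3 Ccr2 probe sets) limit what can be read. Protein at the cell surface was not measured.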
